A study of Homo sapiens with 12 samples.

Results

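The 35 aminoacyl-tRNA synthetase genes described here, 19 of cytosolic and 16 of mitochondrial enzymes, were followed in HK-2 cells exposed to Kbr. They were chosen by name: cytosolic enzymes have symbols ending in 1, together with FARSA and FARSB, and mitochondrial enzymes have symbols ending in 2. For each gene the probe set annotated to that gene alone and having the highest mean was used. Such a probe set existed for 32 of the 35 genes, 17 cytosolic and 15 mitochondrial, among 19775 genes on the array. MARS1, QARS1 and TARS2 had only probe sets annotated to a microRNA gene as well and are not given values. All 32 passed the filter on low values (log2 above 4 in 3 or more arrays), as did 10574 genes altogether. HK-2 is an immortalised line of human renal proximal tubular epithelial cells. Each of 12 Affymetrix arrays was hybridised with RNA of 1 culture: 3 exposed to Kbr for 24 h, 3 vehicle controls at 24 h, 3 exposed to Kbr for 48 h and 3 vehicle controls at 48 h. The labels give the dose only as high and call the replicates biological, and all 12 cultures are of this 1 cell line. The study placed Kbr among 9 compounds tested for signatures of kidney toxicity.

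Aminoacyl-tRNA synthetases join each amino acid to its tRNA and so supply the ribosome with charged tRNA. The cytosolic enzymes serve the ribosomes of the cytosol, whereas the mitochondrial enzymes are encoded in the nucleus, imported, and serve the translation of the few proteins that mitochondrial DNA encodes. GARS1 and KARS1 each give rise to both a cytosolic and a mitochondrial form, and EPRS1 charges glutamate and proline tRNAs in 1 chain. Several cytosolic synthetase genes are known targets of ATF4, the transcription factor of the integrated stress response, which acts with C/EBP partners on the C/EBP-ATF response element.

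Values are log2 GCRMA intensities, so a difference of 1 is a doubling. A gene was called higher or lower where limma's moderated test over all 12 arrays gave a Benjamini-Hochberg adjusted p under 0.05 across the 10574 genes. Kbr 48 h replicate 3 stood apart: over the tested genes it deviated from the mean of its group by 0.29 (root mean square), and the other 11 arrays by 0.16 to 0.23. It is shown apart where values of single arrays are given. Control 48 h replicate 1 stood apart from the other controls in 1 respect, since the mean of 14 ATF4-linked genes was 0.70 above the control mean there and 0.37 and 0.33 below it in the other 2 control arrays at 48 h. Of 14 proximal tubule markers, 4 (SLC3A1, GATM, CDH6 and PAX8) passed the filter on low values, while LRP2, CUBN, SLC34A1 and AQP1 did not. Of 14 markers of other cell types, 3 fibroblast-associated genes (COL1A1, LUM and DCN) passed it, and all 3 were lower with Kbr at both times, COL1A1 for instance reading 5.18 to 5.49 in Kbr cultures at 48 h, against 7.91 to 8.18 in controls. SLC3A1, GATM and CDH6 were lower with Kbr at both times as well, and PAX8 was higher. The part of these shifts in the synthetase results was not tested. In RNA of whole cultures, fewer cells of a kind and less RNA per cell cannot be told apart.

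The core of the C/EBP-ATF response element was looked for in the RefSeq promoters of the synthetase genes (GRCh38.p14, 250 bases before to 50 bases after the transcription start), because it marks the known link between ATF4 and the cytosolic enzymes. A promoter was given for 30 of the 35 genes. The letters TGATGNAA, on either strand, were present in at least 1 promoter of 7 of 16 cytosolic genes and of 1 of 14 mitochondrial genes. The same letters occurred in 3.62% of all 35116 promoters and in at least 1 promoter of 4.46% of 27305 genes. The 48 bases around each match are given 5′ to 3′ on the strand of the gene, with the match in capitals.
AARS1 (chr16:70289666-70289713, minus strand): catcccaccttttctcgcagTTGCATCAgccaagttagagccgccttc
CARS1 (chr11:3057398-3057445, minus strand): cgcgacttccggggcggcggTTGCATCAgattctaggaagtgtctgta
GARS1 (chr7:30594825-30594872, plus strand): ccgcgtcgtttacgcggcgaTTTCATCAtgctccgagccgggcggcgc
IARS1 (chr9:92293683-92293730, minus strand): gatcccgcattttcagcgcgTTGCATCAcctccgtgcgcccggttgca
MARS1 (chr12:57488044-57488091, plus strand): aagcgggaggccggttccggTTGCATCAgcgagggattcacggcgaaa
NARS1 (chr18:57621795-57621842, minus strand): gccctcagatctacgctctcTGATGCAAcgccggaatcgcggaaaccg
TARS1 (chr5:33440947-33440994, plus strand): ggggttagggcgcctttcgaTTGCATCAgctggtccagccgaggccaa
YARS2 (chr12:32756067-32756114, minus strand): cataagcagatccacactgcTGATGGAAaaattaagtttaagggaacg

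In 6 of the 8 windows the match reads TTGCATCA or its reverse complement TGATGCAA. In GARS1 it reads TTTCATCA and in YARS2 TGATGGAA. A match describes the letters only. Of the 7 genes with a window and an expression value, GARS1, NARS1, TARS1 and YARS2 rose at 48 h, where 26.9% of all tested genes were higher, and the changes of AARS1, CARS1 and IARS1 did not pass the test. CARS1 passed it without Kbr 48 h replicate 3 (0.73, adjusted p = 0.00756). Among cytosolic genes whose promoters held no match, HARS1, KARS1, RARS1 and WARS1 rose at 48 h as well, and EPRS1, FARSA, FARSB and SARS1 did not pass. Over all cytosolic genes with a value, 8 of 17 rose. Whether a match goes with a rise was not tested.

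At 24 h few synthetase genes differed between Kbr and control. Among the cytosolic genes, 1 of 17 rose (HARS1) and none fell. Among the mitochondrial genes 2 of 15 rose (EARS2 and MARS2) and 2 fell (IARS2 and VARS2). The 5 of 32 called compare with 32.4% of all tested genes, of which 12.4% were higher and 20.0% lower. The median log2 change was 0.03 for the cytosolic genes and 0.11 for the mitochondrial genes, against -0.06 for all tested genes.

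At 48 h 8 of 17 cytosolic genes rose (GARS1, HARS1, KARS1, NARS1, RARS1, TARS1, WARS1 and YARS1) and none fell. The mitochondrial genes were split, with 5 of 15 higher (AARS2, EARS2, HARS2, MARS2 and YARS2) and 4 lower (IARS2, SARS2, VARS2 and WARS2). The share called, 17 of 32, was close to the 59.6% of all tested genes (26.9% higher and 32.8% lower). The median change was 0.34 for the cytosolic genes, 0.13 for the mitochondrial genes and -0.06 for all tested genes.

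The replicate numbers pair the arrays, and with the number as a block the call count was 10 at 24 h (48.0% of all tested genes) and 22 at 48 h (69.4%). Among the 22, 9 cytosolic genes were higher and 2 lower, and 6 mitochondrial genes were higher and 5 lower, with 31.3% of all tested genes higher and 38.1% lower in that fit. Without Kbr 48 h replicate 3, 14 of 32 were higher and 5 lower at 48 h (59.2% of all tested genes called, 27.5% higher and 31.7% lower): 9 cytosolic genes higher and none lower, 5 mitochondrial genes higher and 5 lower. The cytosolic median without that array was 0.55. Read array by array, all Kbr values lay above all control values at 48 h in 8 cytosolic and 6 mitochondrial genes, and below them in no cytosolic and 4 mitochondrial genes, against 28.6% and 34.2% of all tested genes.

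**Figure D1:**
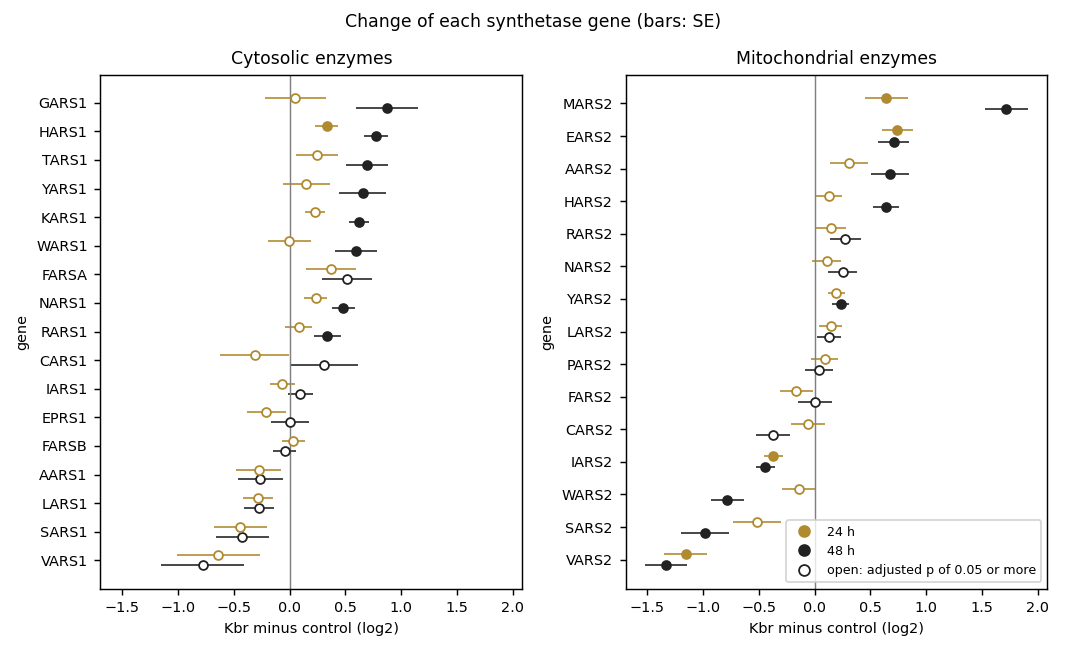
Log2 change, Kbr minus control, of each of the 17 cytosolic (left) and 15 mitochondrial (right) synthetase genes at 24 h (upper point) and 48 h (lower point), with the SE of the fit. Filled points have an adjusted p under 0.05: 1 cytosolic and 4 mitochondrial genes at 24 h, 8 cytosolic and 9 mitochondrial genes at 48 h, where all 8 cytosolic ones lie above 0.

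GARS1, the glycyl-tRNA synthetase of both compartments, had the largest change among the cytosolic genes. At 24 h it read 11.15, 10.81 and 11.16 in Kbr cultures, against 11.02, 10.84 and 11.09 in controls. At 48 h it read 12.48, 12.06 and, in replicate 3, 11.18 in Kbr cultures, against 11.36, 10.78 and 10.97 in controls. Replicates 1 and 2 lay above every control array, whereas replicate 3 fell inside the control range. GARS1 thus rose by 0.87 ± 0.28 (SE) at 48 h, or 1.83-fold, with an adjusted p of 0.0179, and by 1.24 without replicate 3 (adjusted p = 0.0004). The call ended without Kbr 48 h replicate 1, Kbr 48 h replicate 2 or control 48 h replicate 2, without the filter on low values, and with only the groups compared in the fit, with an adjusted p of up to 0.0716.

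TARS1, YARS1 and WARS1, the threonyl-, tyrosyl- and tryptophanyl-tRNA synthetases, showed the same array order at 48 h. TARS1 read 12.73, 12.29 and 12.02 in Kbr cultures, against 11.90, 11.47 and 11.59 in controls. YARS1 read 11.32, 11.05 and 10.31 in Kbr cultures, against 10.29, 10.28 and 10.13 in controls. WARS1, whose gene is also known to respond to interferon, read 10.49, 10.12 and 9.76 in Kbr cultures, against 9.47, 9.45 and 9.66 in controls. In all 3 genes replicate 1 was the highest and replicate 3 the lowest Kbr array, and no Kbr array overlapped the controls. TARS1 rose by 0.69 ± 0.19 (adjusted p = 0.00844), YARS1 by 0.66 ± 0.21 (adjusted p = 0.019) and WARS1 by 0.60 ± 0.19 (adjusted p = 0.0192).

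At 24 h these 3 genes had not passed the test. TARS1 then read 12.14, 11.86 and 12.16 in Kbr cultures, against 11.79, 11.60 and 12.03 in controls. YARS1 read 10.41, 10.21 and 10.33 in Kbr cultures, against 10.13, 10.01 and 10.36 in controls. WARS1 read 9.80, 9.83 and 10.11 in Kbr cultures, against 9.74, 9.76 and 10.24 in controls. Kbr and control arrays overlapped in each, with changes of 0.25, 0.15 and -0.00 and adjusted p of 0.338, 0.621 and 0.995. At 48 h the call of TARS1 held in every alternative. That of YARS1 ended without Kbr 48 h replicate 1 or 2 or control 48 h replicate 3, without the filter and with only the groups compared (adjusted p up to 0.0766), and that of WARS1 ended without Kbr 48 h replicate 1 or control 48 h replicate 1 or 2 (up to 0.0781).

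**Figure D2:**
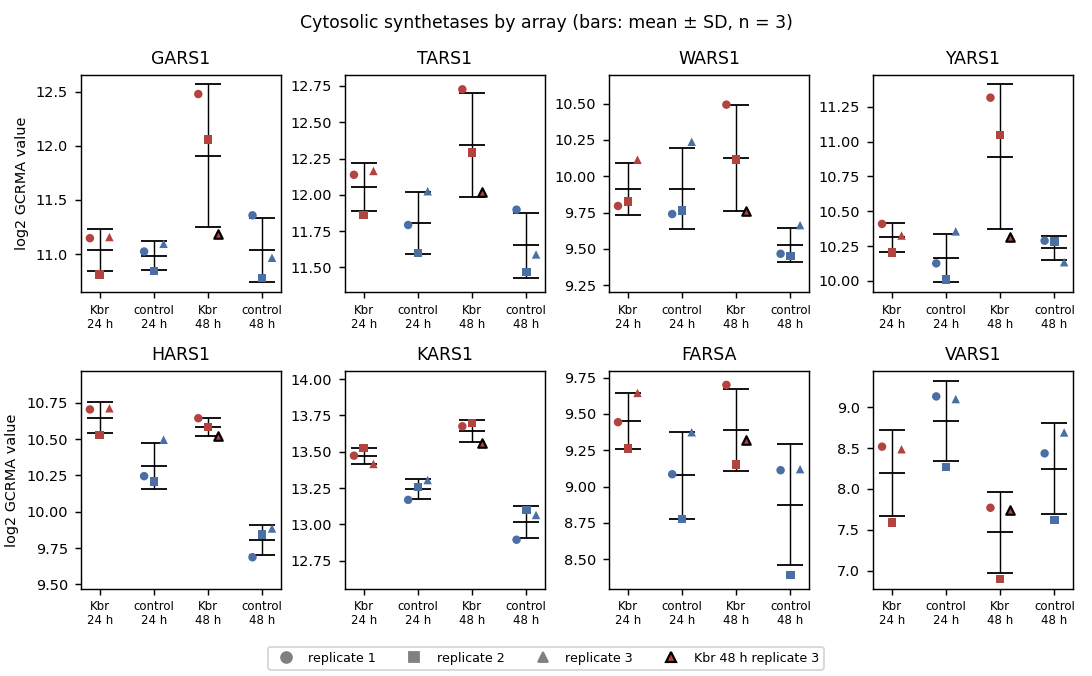
Log2 GCRMA value of 8 cytosolic synthetase genes in each array, Kbr in red and control in blue at 24 h and 48 h, with the mean ± SD of each group (n = 3). Kbr 48 h replicate 3 (outlined triangle) reads 11.18 for GARS1 and 10.31 for YARS1, far below replicates 1 and 2, but 13.56 for KARS1 and 10.52 for HARS1, beside them.

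HARS1 and KARS1, the histidyl- and lysyl-tRNA synthetases, rose at 48 h in all 3 replicates, with replicate 3 within 0.13 of the mean of the other 2 Kbr arrays. HARS1 read 10.70, 10.53 and 10.71 in Kbr cultures at 24 h, against 10.25, 10.21 and 10.50 in controls. At 48 h it read 10.64, 10.58 and 10.52 in Kbr cultures, against 9.69, 9.84 and 9.88 in controls. The Kbr arrays were alike at both times, and the wider gap at 48 h came with lower controls. HARS1 was 0.33 ± 0.11 higher at 24 h (adjusted p = 0.0339) and 0.78 ± 0.11 higher at 48 h (adjusted p = 9.77e-05). The 24 h call ended with arrays centred on their median, with only the groups compared, and without Kbr 24 h replicate 1 or 3 or control 24 h replicate 1 or 2 (adjusted p up to 0.111).

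KARS1 read 13.47, 13.52 and 13.42 in Kbr cultures at 24 h, against 13.17, 13.26 and 13.31 in controls. At 48 h it read 13.68, 13.70 and 13.56 in Kbr cultures, against 12.89, 13.10 and 13.06 in controls. No Kbr array overlapped a control array at either time. The change was 0.23 ± 0.09 at 24 h, short of the threshold (adjusted p = 0.0757) but past it with the replicate block (adjusted p = 0.036). KARS1 rose by 0.62 ± 0.09 at 48 h, or 1.54-fold (adjusted p = 0.000147).

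NARS1 and RARS1, the asparaginyl- and arginyl-tRNA synthetases, rose less. NARS1 read 13.48, 13.40 and 13.12 in Kbr cultures at 48 h, against 12.89, 12.90 and 12.77 in controls, a rise of 0.48 ± 0.10 (adjusted p = 0.00204). Its change at 24 h, 0.24, missed the threshold as fitted (adjusted p = 0.104). It passed with the replicate block (adjusted p = 0.0359) and without Kbr 48 h replicate 3 (adjusted p = 0.0411). RARS1 read 11.73, 11.82 and 11.73 in Kbr cultures at 48 h, against 11.13, 11.64 and 11.50 in controls, a rise of 0.34 ± 0.12 (adjusted p = 0.0306). Control replicate 1 was the lowest array, and the call ended without it (adjusted p = 0.104), without Kbr 48 h replicate 1 or 2, and with only the groups compared.

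FARSA, the alpha subunit of phenylalanyl-tRNA synthetase, lay above control in every pair. It read 9.44, 9.26 and 9.64 in Kbr cultures at 24 h, against 9.09, 8.78 and 9.37 in controls, and 9.70, 9.15 and 9.32 in Kbr cultures at 48 h, against 9.11, 8.39 and 9.12 in controls. Replicate 2 was the lowest array of all 4 groups. The change at 48 h, 0.52 ± 0.23, missed the threshold (adjusted p = 0.0712) and passed it with the replicate block (adjusted p = 0.00833). FARSB, the beta subunit of the same enzyme, differed from control by 0.03 at 24 h and -0.04 at 48 h (adjusted p = 0.831 and 0.739).

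VARS1, the valyl-tRNA synthetase, was the cytosolic gene with the largest downward difference. It read 8.52, 7.59 and 8.49 in Kbr cultures at 24 h, against 9.13, 8.27 and 9.10 in controls, and 7.77, 6.90 and 7.74 in Kbr cultures at 48 h, against 8.44, 7.62 and 8.69 in controls. Replicate 2 was again the lowest array of each group, so the groups overlapped although each Kbr array lay 0.61 to 0.95 below the control of its own number. The differences of -0.64 ± 0.37 and -0.78 ± 0.37 did not pass the test as fitted (adjusted p = 0.211 and 0.0918). With the replicate block VARS1 fell at both times, with an adjusted p of 0.000319 at 24 h and 2.52e-05 at 48 h.

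The other cytosolic genes did not pass the test at either time. AARS1, CARS1, EPRS1 and SARS1, which charge alanine, cysteine, glutamate with proline, and serine, had all 3 Kbr arrays below all 3 controls at 24 h, with differences of -0.28, -0.31, -0.21 and -0.44. No other cytosolic gene had its Kbr arrays all below the controls then, and 4 had them all above (HARS1, KARS1, NARS1 and RARS1). Over all tested genes, 29.2% had all Kbr arrays below and 22.4% all above at 24 h.

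At 48 h the Kbr replicates of those 4 genes split. CARS1 read 10.52, 10.12 and 9.04 in Kbr cultures, against 9.95, 9.35 and 9.46 in controls, a difference of 0.31 (adjusted p = 0.411). Without replicate 3 its change was 0.73 and passed the test (adjusted p = 0.00756). SARS1 read 11.55, 11.09 and 10.46 in Kbr cultures at 48 h, against 11.80, 11.30 and 11.26 in controls. AARS1 read 10.11, 9.54 and 9.22 in Kbr cultures, against 10.20, 9.67 and 9.79 in controls. In CARS1, SARS1 and AARS1 control replicate 1 was the highest control, as it was for the ATF4-linked genes. The fit was also made without that array, but the changes of these genes in it are not given here. A cause of their differences was not tested. EPRS1, IARS1 and LARS1 differed by 0.00, 0.10 and -0.28 at 48 h, and by 0.25, 0.21 and -0.18 without replicate 3. LARS1 passed with the replicate block (adjusted p = 0.0466), and EPRS1 passed with the block without replicate 3 (adjusted p = 0.0322).

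Among the mitochondrial genes MARS2, the mitochondrial methionyl-tRNA synthetase, had the largest change of all 32. It read 6.70, 6.71 and 6.82 in Kbr cultures at 24 h, against 6.12, 5.91 and 6.26 in controls. At 48 h it read 7.61, 7.53 and, in replicate 3, 6.76 in Kbr cultures, against 5.63, 5.67 and 5.44 in controls. Replicate 3 stayed near the level of the 24 h Kbr arrays and still lay above every control. The MARS2 controls were themselves lower at 48 h than at 24 h, with a change of -0.52. MARS2 rose by 0.64 ± 0.20 at 24 h, or 1.56-fold (adjusted p = 0.0276), and by 1.72 ± 0.20 at 48 h, or 3.29-fold (adjusted p = 2.92e-05). The 24 h call ended without the filter on low values and without any 1 of the 3 Kbr 24 h arrays or control 24 h replicate 1 or 2 (adjusted p up to 0.0907).

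The promoter of MARS2 (GRCh38.p14, chr2:197705119-197705418, plus strand, from RefSeq) is given because the gene moved most. Capitals mark GCATGCGC, the core of the NRF1 site, here found on both strands with overlapping letters, and CACGTG, the E-box.
MARS2: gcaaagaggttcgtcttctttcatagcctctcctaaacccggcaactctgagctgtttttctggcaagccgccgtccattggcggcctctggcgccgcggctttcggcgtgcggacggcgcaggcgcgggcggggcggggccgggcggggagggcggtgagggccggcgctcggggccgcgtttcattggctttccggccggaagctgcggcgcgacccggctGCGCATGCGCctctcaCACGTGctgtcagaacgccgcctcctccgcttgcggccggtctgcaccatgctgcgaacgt

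GCATGCGC was present in the promoters of 2 synthetase genes, MARS2 and YARS2, both mitochondrial, and in 3.05% of all promoters (3.68% of genes). CACGTG was present in those of CARS2, EARS2, IARS1 and MARS2, and in 7.26% of all promoters (8.77% of genes). A further motif, TGACNNNGC, the core of the antioxidant response element, was present in those of GARS1, KARS1, NARS2, RARS2, TARS1 and WARS1, and in 13.3% of all promoters (16.1% of genes). Each motif was searched on both strands.

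EARS2, the mitochondrial glutamyl-tRNA synthetase, rose alike at both times. It read 8.04, 7.69 and 8.03 in Kbr cultures at 24 h, against 7.24, 6.97 and 7.34 in controls, and 8.23, 7.86 and 8.07 in Kbr cultures at 48 h, against 7.27, 7.40 and 7.36 in controls. The groups did not overlap at either time, and replicate 3 lay between the other 2 Kbr arrays at 48 h. The rise was 0.74 ± 0.14 at 24 h (adjusted p = 0.00271) and 0.71 ± 0.14 at 48 h (adjusted p = 0.00114).

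AARS2, the mitochondrial alanyl-tRNA synthetase, read 7.85, 7.82 and 7.46 in Kbr cultures at 24 h, against 7.51, 7.42 and 7.28 in controls. At 48 h it read 7.89, 7.89 and 7.49 in Kbr cultures, against 7.34, 6.78 and 7.13 in controls. The groups overlapped at 24 h and were apart at 48 h. AARS2 rose by 0.68 ± 0.17 at 48 h (adjusted p = 0.00529), after 0.30 ± 0.17 at 24 h (adjusted p = 0.191).

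HARS2, the mitochondrial histidyl-tRNA synthetase, read 9.30, 9.24 and 8.94 in Kbr cultures at 48 h, against 8.46, 8.64 and 8.46 in controls, and rose by 0.64 ± 0.12 (adjusted p = 0.000734). Its change at 24 h was 0.13 (adjusted p = 0.425). HARS2 and HARS1 lie head to head on chromosome 5 with starts 85 bases apart, and both rose at 48 h. The stretch that their RefSeq promoters share, chr5:140691321-140691504 of GRCh38.p14, is given on the plus strand, that of HARS2, and holds none of the 4 motifs searched.
HARS1 and HARS2: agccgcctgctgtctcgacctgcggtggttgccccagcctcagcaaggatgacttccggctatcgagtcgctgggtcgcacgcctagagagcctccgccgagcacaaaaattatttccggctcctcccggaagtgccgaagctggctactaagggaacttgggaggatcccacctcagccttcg

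YARS2, the mitochondrial tyrosyl-tRNA synthetase, had the smallest change called at 48 h, 0.23 ± 0.08 (adjusted p = 0.0208). It read 9.44, 9.56 and 9.51 in Kbr cultures then, against 9.25, 9.25 and 9.32 in controls. At 24 h the change of 0.19 passed the test only with the replicate block (adjusted p = 0.0727 without and 0.0272 with it). The 48 h call ended without Kbr 48 h replicate 2 or control 48 h replicate 1 or 2 and with only the groups compared (adjusted p up to 0.0898).

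VARS2, the mitochondrial valyl-tRNA synthetase, had the largest fall at both times. It read 7.55, 7.85 and 8.18 in Kbr cultures at 24 h, against 8.80, 9.12 and 9.14 in controls, and 7.33, 7.36 and 7.69 in Kbr cultures at 48 h, against 8.50, 8.81 and 9.06 in controls. Every Kbr array lay below every control of its time. VARS2 fell by 1.16 ± 0.19 at 24 h, a level 2.23-fold lower (adjusted p = 0.00143), and by 1.33 ± 0.19 at 48 h, 2.52-fold lower (adjusted p = 0.00014). Both calls held in every alternative.

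SARS2 and WARS2, the mitochondrial seryl- and tryptophanyl-tRNA synthetases, fell at 48 h. SARS2 read 6.16, 5.89 and 6.24 in Kbr cultures at 24 h, against 6.84, 6.18 and 6.82 in controls, and 5.79, 5.37 and 5.55 in Kbr cultures at 48 h, against 6.75, 6.17 and 6.75 in controls. It fell by 0.98 ± 0.21 at 48 h (adjusted p = 0.00221), and its difference of -0.52 at 24 h passed only with the replicate block (adjusted p = 0.0868 without and 0.00339 with it). WARS2 read 7.96, 8.34 and 8.45 in Kbr cultures at 24 h, against 8.22, 8.46 and 8.50 in controls, and 7.78, 7.99 and 7.75 in Kbr cultures at 48 h, against 8.69, 8.75 and 8.44 in controls. The WARS2 groups overlapped at 24 h (-0.14, adjusted p = 0.475) and were apart at 48 h, a fall of 0.78 ± 0.15 (adjusted p = 0.000819). The other tested probe set of WARS2 differed by -0.11 at 48 h (adjusted p = 0.581).

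IARS2, the mitochondrial isoleucyl-tRNA synthetase, had the smallest SE of the genes that fell. It averaged 12.09 ± 0.03 in Kbr cultures at 24 h, against 12.46 ± 0.02 in controls, and 12.04 ± 0.04 in Kbr cultures at 48 h, against 12.48 ± 0.11 in controls (SD, n = 3 each). Kbr 48 h replicate 3 read 12.05, beside the mean of the other 2 Kbr arrays. The fall was 0.37 ± 0.08 at 24 h (adjusted p = 0.00633) and 0.44 ± 0.08 at 48 h (adjusted p = 0.000802), and both calls held in every alternative. The remaining mitochondrial genes, CARS2, FARS2, LARS2, NARS2, PARS2 and RARS2, differed from control by -0.38 to 0.28 at 48 h without passing the test. CARS2 (-0.38, adjusted p = 0.0509) passed with the replicate block (0.0202) and without Kbr 48 h replicate 3 (0.00327), and RARS2 (0.28, adjusted p = 0.11) passed with the block (0.00961).

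**Figure D3:**
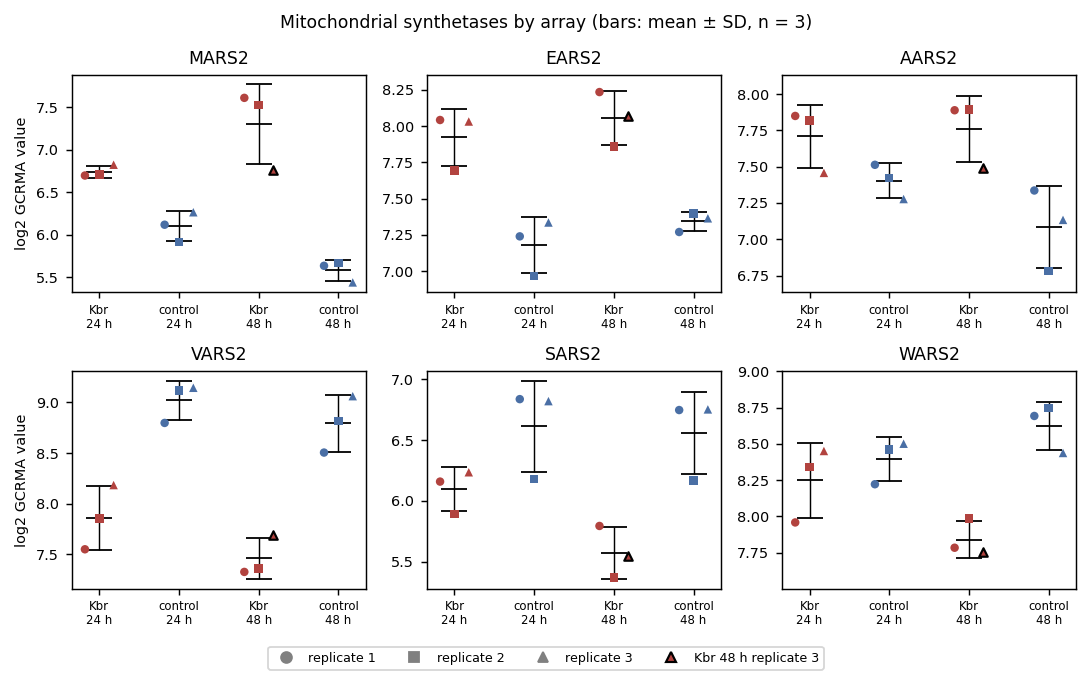
Log2 GCRMA value of 6 mitochondrial synthetase genes in each array, Kbr in red and control in blue at 24 h and 48 h, with the mean ± SD of each group (n = 3). MARS2 and EARS2 lie above control and VARS2 below it in every array at both times, and among the 6 genes Kbr 48 h replicate 3 (outlined triangle) is furthest from its replicates in MARS2, where it reads 6.76.

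The compartments were set side by side by averaging, in each array, the differences of the genes from the control mean of the same time. The cytosolic mean was 0.02, -0.14 and 0.04 in the Kbr arrays at 24 h, and 0.53, 0.24 and, in replicate 3, -0.04 at 48 h. The mitochondrial mean was -0.05, 0.02 and 0.04 in the Kbr arrays at 24 h and 0.06, 0.08 and 0.01 at 48 h. The cytosolic mean therefore differed between Kbr replicates at 48 h far more than the mitochondrial mean. In replicate 3 neither mean lay over 0.04 from the control mean. These means average genes that moved in opposite directions: in replicate 3, 10 of 17 cytosolic and 8 of 15 mitochondrial genes lay above the control mean. There MARS2 read 6.76, against 5.44 to 5.67 in controls, and VARS2 7.69, against 8.50 to 9.06. The cytosolic mean minus the mitochondrial mean was 0.20 ± 0.26 (SD, n = 3) in Kbr cultures at 48 h, with values of 0.47, 0.16 and -0.05, while control arrays at 48 h gave 0.10, -0.09 and -0.01. At 24 h it was -0.03 ± 0.11 in Kbr cultures. The difference between compartments at 48 h was thus smaller than its spread between replicates, and no test was made of it because the genes were chosen with earlier results known.

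**Figure D4:**
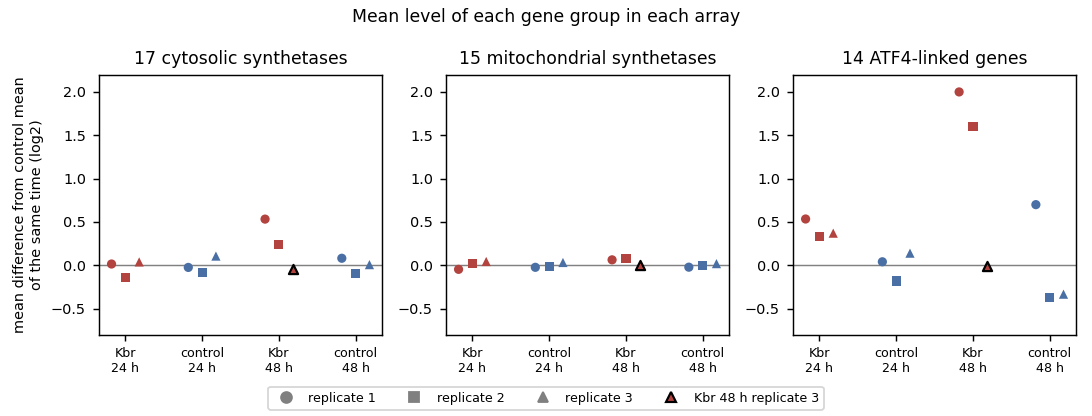
Mean log2 difference from the control mean of the same time in each array, for the 17 cytosolic synthetase genes, the 15 mitochondrial synthetase genes and 14 ATF4-linked genes, Kbr in red and control in blue. At 48 h the cytosolic mean and the ATF4-linked mean are both high in Kbr replicates 1 and 2 (0.53 and 0.24 for the cytosolic genes, 2.00 and 1.60 for the ATF4-linked genes) and near 0 in replicate 3 (outlined triangle), while the mitochondrial mean stays at 0.01 to 0.08.

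Replicate 3 was the lowest Kbr array at 48 h in 13 of 17 cytosolic genes and in 5 of 15 mitochondrial genes, against 41.7% of all tested genes. It lay over 0.5 below the mean of replicates 1 and 2 in 7 cytosolic genes (CARS1, GARS1, YARS1, SARS1, EPRS1, AARS1 and WARS1) and in 1 mitochondrial gene (MARS2), against 1270 of all 10574 tested genes. It lay over 0.5 above that mean in no cytosolic gene and in 1 mitochondrial gene (CARS2), against 707 of all tested genes. The median gap was -0.34 for the cytosolic genes and -0.03 for the mitochondrial genes, with -0.02 for all tested genes. The gap was widest in CARS1 (-1.28) and GARS1 (-1.09), and narrow in HARS1 (-0.09), KARS1 (-0.13) and RARS1 (-0.04).

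The ATF4-linked genes moved with the cytosolic genes across the Kbr 48 h arrays. They comprised ATF4 itself, its partners and targets such as DDIT3, ATF3 and TRIB3, the asparagine synthetase ASNS, and the transporters SLC7A11, SLC3A2 and SLC7A5. Their mean difference from control was 0.53, 0.33 and 0.37 in the Kbr arrays at 24 h, and 2.00, 1.60 and, in replicate 3, -0.01 at 48 h. All 14 were lowest in replicate 3, and in 13 of them it lay over 0.5 below the mean of the other 2 arrays, with a median gap of -1.35. DDIT3, which encodes CHOP, read 12.91, 12.83 and 9.55 in Kbr cultures at 48 h, against 10.74, 8.93 and 8.87 in controls. ASNS read 10.75, 10.33 and 8.26 in Kbr cultures, against 10.35, 9.41 and 9.45 in controls. At 24 h 2 of the 14 rose and 1 fell (median 0.08), where 12.4% of all tested genes were higher and 20.0% lower. At 48 h 6 of the 14 rose and 1 fell (median 0.83), where 26.9% of all tested genes were higher and 32.8% lower. Without replicate 3, 10 rose and 1 fell (median 1.34), where 27.5% were higher and 31.7% lower. The part of this variation in the synthetase results was not tested.

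**Figure D5:**
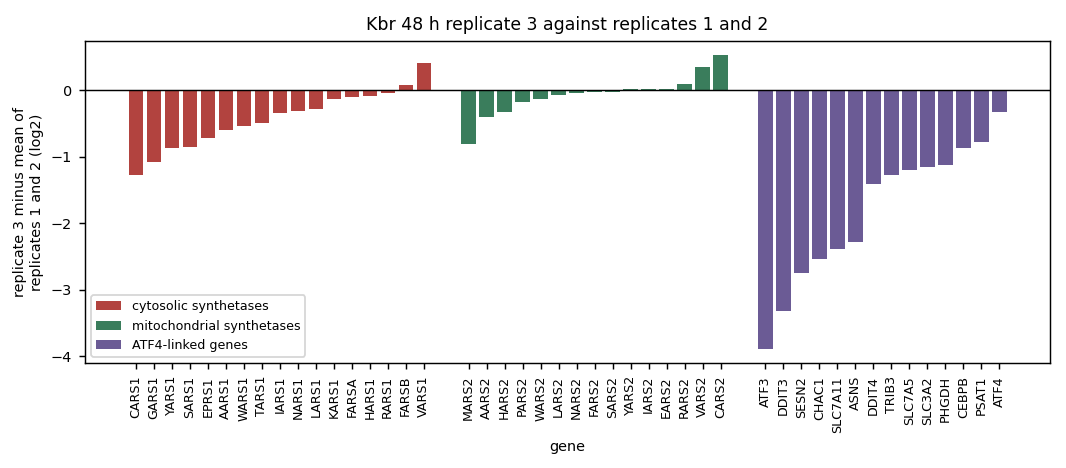
Kbr 48 h replicate 3 minus the mean of Kbr 48 h replicates 1 and 2 (log2) for each cytosolic synthetase gene, mitochondrial synthetase gene and ATF4-linked gene. The bars reach -1.28 among the cytosolic genes (CARS1) and -0.81 among the mitochondrial genes (MARS2), and all 14 ATF4-linked genes lie below 0.

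The change of the Kbr effect between the times was tested as the effect at 48 h minus the effect at 24 h. MARS2 alone passed, with 1.08 ± 0.28 (adjusted p = 0.0481), against 5.58% of all tested genes (2.09% upward). That call ended without any 1 of the other 11 arrays, without the filter on low values, and with arrays centred on their median, with an adjusted p of up to 0.12, and it was stronger without Kbr 48 h replicate 3 (1.35, adjusted p = 0.0021). GARS1 had a difference of 0.82 ± 0.39 (adjusted p = 0.226), and 1.18 without replicate 3 (adjusted p = 0.0183). With the replicate block 5 genes passed (20.2% of all tested genes): MARS2, HARS1, KARS1 and HARS2 upward and WARS2 downward. Without replicate 3, 6 passed (14.3% of all tested genes, 7.73% upward), all upward: CARS1, GARS1, KARS1, YARS1, HARS2 and MARS2.

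Few synthetase genes were called between the vehicle controls of the different times, but their median change was -0.12, against -0.03 for all tested genes. At an unadjusted limma p under 0.05, 4 of 32 were lower and none higher, against 1351 lower and 967 higher of all 10574. HARS1 was 0.51 ± 0.11 lower in controls at 48 h than in controls at 24 h (adjusted p = 0.0298), the only synthetase gene called, against 4.03% of all tested genes (2.30% lower). That call ended with only the groups compared and without control 24 h replicate 1 or 3 or control 48 h replicate 1 or 2 (adjusted p up to 0.134). With the replicate block VARS1 was lower as well (-0.59, adjusted p = 0.00232), where 20.8% of all tested genes were called.

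Grouped by catalytic fold, class I enzymes bind ATP in a Rossmann fold and class II enzymes on an antiparallel sheet. EPRS1, which charges both glutamate and proline tRNAs, was counted in class I only. At 48 h 6 of 17 class I genes rose and 3 fell (median 0.13), while 7 of 15 class II genes rose and 1 fell (median 0.48), where 26.9% of all tested genes were higher and 32.8% lower. Without Kbr 48 h replicate 3 the medians were 0.23 and 0.55. Of the enzymes held in the multisynthetase complex of the cytosol, 5 of 7 had a value, and 2 of those rose at 48 h (KARS1 and RARS1, median of the 5 genes 0.10). Of the 12 cytosolic genes outside the complex, 6 rose and none fell (median 0.50). Without Kbr 48 h replicate 3 the median was 0.25 for the complex and 0.66 outside it. These are counts over few genes, and the difference between the groups was not tested.

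For 15 pairs of a cytosolic and a mitochondrial gene that serve the same amino acid, the signs at 48 h were opposite in 6. EPRS1 was paired with both EARS2 and PARS2, and FARS2 with both FARSA and FARSB, so the pairs are not all separate. Among the 6, FARSB and FARS2 both lay near 0 (-0.04 and 0.003). Both genes were called in 3 pairs. HARS1 and HARS2 rose (0.78 and 0.64), as did YARS1 and YARS2 (0.66 and 0.23). WARS1 rose by 0.60 while WARS2 fell by 0.78, although the other tested probe set of WARS2 did not pass the test (-0.11, adjusted p = 0.581). VARS1 and VARS2 had differences of -0.78 and -1.33, of which the VARS2 change passed the test and the VARS1 change did so only with the replicate block.

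A total of 53 probe sets of the 32 genes passed the filter on low values, and 15 genes had 2 or more of them. No gene had probe sets called in opposite directions at either time. EARS2 had a further probe set at 24 h that did not pass the test (0.42, adjusted p = 0.194). WARS2 was the clearest case at 48 h, since its other probe set differed by -0.11 ± 0.15 (adjusted p = 0.581), against -0.78 for the one used. LARS1 and VARS1 had probe sets that fell where the one used did not pass: 2 of LARS1 (-0.56 and -0.71, adjusted p = 0.00181 and 0.000994) and 1 of VARS1 (-1.82, adjusted p = 0.00616). CARS1 and FARSA each had one that rose (0.85 and 0.54, adjusted p = 0.0397 and 0.0228). The second probe sets of WARS1 (0.48, adjusted p = 0.0508) and AARS2 (0.30, adjusted p = 0.0616) fell short of the threshold. For SARS1 the probe sets pointed in opposite directions at 48 h, -0.42 for the one used and 1.30 for the other (adjusted p = 0.148 and 0.0612).

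Among genes that handle tRNA before or after charging, 9 of 12 were tested. At 24 h 4 rose and none fell (median 0.27), where 12.4% of all tested genes were higher and 20.0% lower. At 48 h 5 rose and 1 fell (median 0.72), where 26.9% were higher and 32.8% lower. PSTK, the kinase that phosphorylates seryl-tRNA on the way to selenocysteine, rose by 1.13 at 24 h and 1.82 at 48 h (adjusted p = 0.000275 and 2.26e-06). XPOT, the nuclear exporter of tRNA, rose by 0.78 and 0.99, and TRNT1, which adds the CCA end that synthetases charge, rose by 0.66 and 1.19. SEPSECS, which completes selenocysteinyl-tRNA, read 7.25, 7.38 and 5.95 in Kbr cultures at 48 h, against 5.65, 5.66 and 5.54 in controls, so that replicate 3 was again the lowest Kbr array. DTD1, a deacylase that removes D-amino acids from tRNA, fell by 0.63 at 48 h (adjusted p = 0.000205).

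Among genes that work beside the mitochondrial synthetases in translation, 12 of 13 were tested: 2 rose and 1 fell at 24 h (median 0.07), and 5 rose and 3 fell at 48 h (median 0.25). The 3 of 12 and 8 of 12 called compare with 32.4% and 59.6% of all tested genes. MTRF1L, a mitochondrial release factor, rose by 0.58 at 24 h and 1.16 at 48 h (adjusted p = 0.00536 and 2.05e-05). MTIF3, a mitochondrial initiation factor, fell by 0.71 and 1.07 (adjusted p = 0.0026 and 4.59e-05). MTFMT, which formylates the initiator methionyl-tRNA that MARS2 makes, rose by 0.44 and 0.32 (adjusted p = 0.0134 and 0.0292). As with the mitochondrial synthetases, changes in both directions stood side by side in this list.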

How the data were processed

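The table of log2 values was made by the authors with GCRMA, per the submitters' processing notes; its version and the probe annotation used then are not given in the sources used here. Those log2 values were used as deposited. Probe sets were named from the platform annotation: of 54675, 41091 named 1 gene, 1801 several, 11721 none and 62 were controls. Scanner intensities were not used here, so background and saturation of single probes were not examined, and the number of arrays limits the precision.

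Per gene, of the probe sets naming it alone, the one with the highest mean over the 12 arrays was kept, and genes with log2 above 4 in 3 or more arrays were tested (10574 of 19775). Limma 3.58.1 in R 4.3.3 fitted the 4 group means over 12 arrays with 8 residual degrees of freedom and a prior of 2.87, by two-sided tests with Benjamini-Hochberg adjustment over all tested genes. The code was tested on simulated data.

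The labels give the groups the same replicate numbers. Same-numbered arrays of different groups had deviations from their group means that correlated at 0.23 to 0.63 in all 18 pairs, against -0.38 to -0.00 in 36 pairs of different numbers, so the numbers were taken to pair the arrays and the blocked fit (6 residual degrees of freedom) is given where it changes a call. The labels do not say what a shared number stands for.

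The genes, the lists and the tests were chosen with earlier results of these data known. Values in every array are given for the 8 cytosolic and 6 mitochondrial genes with the largest change at either time, with a few further genes chosen after their values were seen. Alternatives changed the filter, the probe set, the normalization, the arrays fitted, the prior, the block and each array in turn. Added after the data were seen were each probe set on its own, and the block without Kbr 48 h replicate 3. Promoters are those of RefSeq (GRCh38.p14), matched by gene for 30 of 35 genes.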

Additional observations from a re-analysis of the deposited data

Results flagged for a closer look

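MARS2, the mitochondrial methionyl-tRNA synthetase, was singled out because its Kbr effect differed between the times in a direct test. The effect at 48 h exceeded that at 24 h by 1.08 on the log2 scale, with an adjusted p of 0.0481 from limma. The call ended in 13 of 22 alternatives, with an adjusted p of up to 0.12. In all 3 pairs of the same number the Kbr minus control difference was larger at 48 h (1.97, 1.86 and 1.32) than at 24 h (0.58, 0.79 and 0.56). The wider gap came partly with lower controls, whose change from 24 h to 48 h was -0.52 and was not called. In replicate 3 the Kbr arrays read 6.82 at 24 h and 6.76 at 48 h, against 6.26 and 5.44 in the controls.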

How the results depend on the processing

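No synthetase gene that was called changed direction under any alternative. At 24 h the synthetase genes called were 5, and 10 with the replicate block, 3 at an adjusted p under 0.01 and 3 to 6 with 1 array left out. For the cytosolic genes alone the 24 h count was 1, and 2 without the filter, 2 with the mean of all probe sets, 2 with the trended prior, 4 with the block, 0 with centred arrays, 0 at 0.01 and 0 to 2 with 1 array left out. At 48 h the cytosolic count was 8, and 5 with only the groups compared, 4 at 0.01 and 5 to 9 with 1 array left out, the lowest without Kbr 48 h replicate 2. For the difference between the times the count was 1, and 0 without the filter, with centred arrays and at 0.01, 2 with the mean of all probe sets or the trended prior, 5 with the block, 11 with the block without Kbr 48 h replicate 3 (33.4% of all tested genes) and 0 to 6 with 1 array left out. There the cytosolic count was 0, and 1 with the mean of all probe sets or the trended prior, 2 with the block, 9 with the block without that array and 0 to 4 with 1 array left out. The mitochondrial count was 1, and 0 without the filter, with centred arrays and at 0.01, 3 with the block, 2 with the block without that array and 0 to 2 with 1 array left out. Between the control groups the count was 1, and 0 with only the groups compared and at 0.01, 2 with the block, 5 with the block without that array (27.4% of all tested genes; 4 cytosolic and 1 mitochondrial) and 0 to 2 with 1 array left out; there the cytosolic count was 2 with the block and 0 to 1 with 1 array left out, and the mitochondrial count was 0 to 1. The cytosolic minus mitochondrial mean in Kbr cultures at 24 h was -0.15 with quantile normalization, against -0.03. The causes of these shifts were not tested.

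Over all tested genes the count at 24 h was 3429, and 1830 at 0.01 and 2255 without control 24 h replicate 1. For the difference between the times it was 590, and 386 without the filter, 2140 with the block, 3525 with the block without Kbr 48 h replicate 3, 32 at 0.01 and 135 to 1506 with 1 array left out. Between the control groups it was 426, and 230 without the filter, 2202 with the block, 2893 with the block without that array, 31 at 0.01 and 25 to 648 with 1 array left out; with only the control groups in limma's fit it was 0, where 2140 genes had an unadjusted p under 0.05. The limits are 3 arrays a group, 1 array that stands apart among the Kbr 48 h arrays, 1 dose, and probe sets that disagree for some genes.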
